A study of Mus musculus with 24 samples.

Results

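The 36 genes described here encode lysosomal hydrolases, the proteins that sort and assist them, and proteins of the lysosomal membrane, measured by RNA sequencing in microglia, the resident macrophages of the brain. They were listed by name, with the subunits of the vacuolar proton pump and the cathepsins left out, and they stand among 26375 genes with a read in the series. By role the list holds 11 glycosidases, 4 sulfatases, 4 lipid hydrolases, 2 proteases, 3 lumenal cofactors or carriers, 4 genes of hydrolase sorting and 8 membrane proteins. A filter on low counts was passed by 35 of the 36. The exception, Gla (alpha-galactosidase A), had 6 reads in a female WT control library, 1 read in a female WT phagocytosis library and 0 in the other 22.

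Smart-Seq2, which reads whole transcripts but keeps neither strand nor molecular identifiers, was used on 1000 cells per library, sorted from whole brain of C57BL/6 mice by absence of Ly6C and presence of CD11b and Fcrls. The 24 libraries form 8 groups: female or male, wild type (WT) or without neuroligin-4 (NL4-/-), a synaptic adhesion protein, and control or phagocytosis. Each control group has 2 libraries and each phagocytosis group has 4, and the series' design text, which states 5 for the latter, calls them biological replicates. The labels do not say what was engulfed, in the animal or in culture, how old the mice were, or whether a library pooled animals. No transcript of the knocked-out gene Nlgn4l was in the quantified set (0 transcripts), so the genotype labels could not be checked on it.

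Lysosomes are acidic organelles in which macrophages break down what they engulf. Most lysosomal hydrolases are made in the endoplasmic reticulum, receive a mannose 6-phosphate tag in the Golgi, and are carried to endosomes by mannose 6-phosphate receptors, which release them on acidification and return. The membrane around them is lined by heavily glycosylated proteins and carries channels and transporters that export the products. Many lysosomal genes carry the CLEAR element, an E-box that factors of the TFEB and TFE3 family bind. In microglia, lysosomal proteins such as CD68 are widely used as signs of phagocytic activity.

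Read totals ran from 421107 to 1013797 per library, and the members together took 1.5 to 2.59% of them. All 10 microglia markers were present, and their summed level was 32474 to 46267 reads per 1000000 reads of the library (CPM) in controls and 18633 to 44368 CPM in phagocytosis libraries. Reads in 26 satellite-like transcripts, which share sequence with the predicted gene Gm10800, took 4.05 to 23.2% of a control library and 1.52 to 16.3% of a phagocytosis library. They passed 20% in 3 controls (number 1 of both NL4-/- sexes and number 2 of male WT). Phagocytosis libraries numbered 1 and 2 differed from those numbered 3 and 4 in several members, and the results that rest on either set are given with and without it.

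Levels per transcript length, from the deposited TPM (transcripts per 1000000, not corrected for library composition), spread the members widely. Lgmn (legumain, an asparagine-specific protease) had a control median of 2232 TPM (range 948 to 2783) and Laptm5, a membrane protein of haematopoietic lysosomes, 2178 TPM (1110 to 2878). Their ranges overlapped. Grn (progranulin) followed at 984 TPM, Cd68 at 570 TPM, Psap (prosaposin, the precursor of the saposins) at 432 TPM and Hexa, the alpha subunit of beta-hexosaminidase, at 370 TPM, with each range overlapping the next. At the low end stood Galc (galactosylceramidase, 3.53 TPM), Sgsh (2.72 TPM), Gnptab (1.15 TPM) and Igf2r (0.0989 TPM), and Gla was listed at 0 in 22 libraries. In rank order of median TPM, Lamp1 stood at 17 in controls and at 9 in phagocytosis libraries, and Npc2 at 14 and 11.

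**Figure D1:**
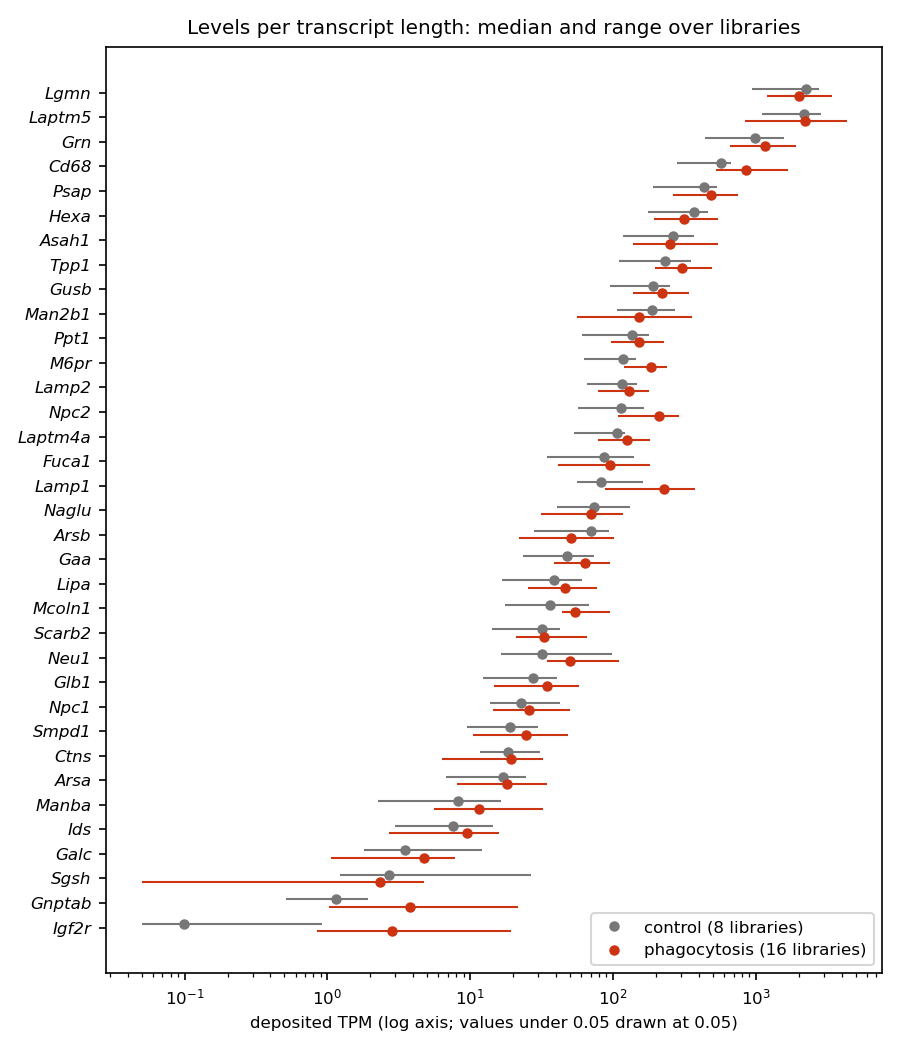
Deposited TPM of the members on a log axis, with the median as a point and the range over libraries as a line, for 8 control and 16 phagocytosis libraries, Gla not drawn. Lgmn and Laptm5 lie highest and Galc, Sgsh, Gnptab and Igf2r lowest in both states. The medians of Igf2r (0.0989 and 2.85 TPM) lie far apart, but its ranges overlap (highest control 0.923 TPM, lowest phagocytosis library 0.842 TPM).

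Phagocytosis libraries were compared with controls by averaging the difference over the 4 combinations of sex and genotype. Of the 35 members tested, 5 rose (Igf2r, Lamp1, Npc2, Cd68 and M6pr) and 2 fell (Arsb and Man2b1), both counts at an adjusted p under 0.05 (edgeR's quasi-likelihood F test with Benjamini-Hochberg adjustment over 9803 genes, as for every adjusted p here unless another is named). Of all genes tested, 8.41% were called higher and 5.18% lower, 13.6% in either direction. DESeq2 called the same 5 higher and 2 lower (all genes 9.22% and 5.14%). The median member difference was 0.0145 on the log2 scale and that of all genes -0.0052. The other 28 members had differences between -0.61 (Sgsh) and 0.94 (Gnptab), and 18 of 35 lay above 0. The summed level of the members ran from 18500 to 23576 CPM in controls (median 21985) and from 14860 to 25704 CPM in phagocytosis libraries (median 20193), so the summed levels overlapped. In bulk samples, fewer cells of a type and less RNA per cell cannot be told apart.

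**Figure D2:**
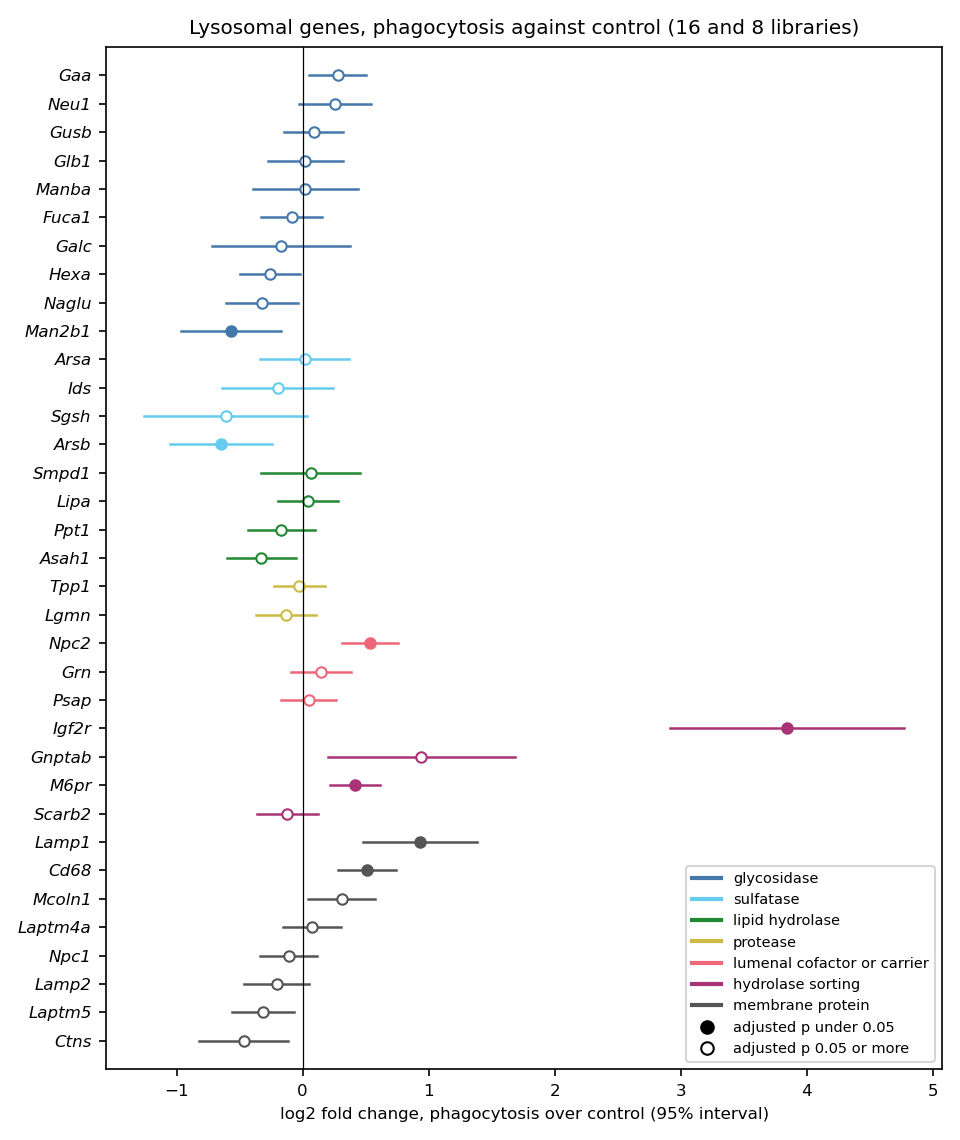
Log2 fold change of phagocytosis over control for the 35 members tested, averaged over the 4 combinations of sex and genotype. The 95% intervals were computed from edgeR's F statistic. Colours give the role and filled points an adjusted p under 0.05. Igf2r at 3.84 stands far to the right of the other members, and the glycosidases, sulfatases, lipid hydrolases and proteases lie between -0.65 and 0.28.

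The promoters of the members were read from RefSeq (GRCm38.p6), as 300 bases from 250 before to 50 after a gene's start, and 33 of the 36 had an entry. In all, 3 forms of the E-box were searched, each its own reverse complement and so the same on both strands: CACGTG, TCACGTGA, which contains it, and the CLEAR form, which is TCACGTGA with a G before it and a C after it. CACGTG was in 10 of 33 members (30.3%), in 11 of 44 other lysosome genes (25.0%) and in 8.09% of 27025 genes. The members were Glb1, Gla, Gaa, Naglu, Arsa, Sgsh, Lgmn, Igf2r, Lamp1 and Mcoln1. TCACGTGA was in 3 of 33 members (9.09%: Gla, Igf2r and Mcoln1), in 6 of 44 other lysosome genes (13.6%) and in 1.12% of genes. The CLEAR form was in 1 member (Igf2r, 3.03%), in 1 other lysosome gene (Cln3, 2.27%) and in 0.370% of genes. So 2 of the 7 members that changed between states held CACGTG (Igf2r and Lamp1), 4 did not (Npc2, Cd68, Arsb and Man2b1), and M6pr had no entry. A match is a run of letters and not a measured site.

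The 100 bases before the RefSeq start are shown for the 2 of these with matches and for Cd68 and Man2b1, 1 that rose and 1 that fell, without any. Capitals mark each CACGTG, and the runs read 5′ to 3′ on the gene's strand. They cover chr17:12769707-12769806 (minus) for Igf2r, chr8:13159061-13159160 (plus) for Lamp1, chr11:69666171-69666270 (minus) for Cd68 and chr8:85083169-85083268 (plus) for Man2b1.
Igf2r: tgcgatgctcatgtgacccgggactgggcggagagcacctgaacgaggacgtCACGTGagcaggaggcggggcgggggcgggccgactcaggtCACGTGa
Lamp1: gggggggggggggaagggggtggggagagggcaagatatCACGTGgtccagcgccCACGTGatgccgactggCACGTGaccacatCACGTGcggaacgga
Cd68: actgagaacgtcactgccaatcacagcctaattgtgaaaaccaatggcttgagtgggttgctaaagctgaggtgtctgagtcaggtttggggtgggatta
Man2b1: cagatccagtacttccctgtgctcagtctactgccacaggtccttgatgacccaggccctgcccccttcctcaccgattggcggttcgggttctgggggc
Lamp1 holds 4 matches within this stretch and Igf2r 2. The last Igf2r match starts 7 bases before the start and is the CLEAR form, whose final C lies just past the bases shown.

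The genes that sort hydrolases held the largest difference. Igf2r (chr17:12682406-12769664, minus strand, GRCm38), the large receptor for mannose 6-phosphate, which also binds insulin-like growth factor 2, had 0, 1.74 and 8.54 CPM (lowest, median and highest) in the 8 controls and 10.2, 24.7 and 47.4 CPM in the 16 phagocytosis libraries. In CPM every phagocytosis library was above every control, and 3 of the controls had no read. In deposited TPM the states overlapped (highest control 0.923, lowest phagocytosis library 0.842). Its control reads, 0 to 5 a library, did not meet the count filter. Igf2r passed that filter only through its phagocytosis libraries. Among all genes that passed it, 0.796% lay in the same way wholly above the controls, and no other member did.

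The Igf2r difference was 3.84 ± 0.454 (log2, SE), adjusted p = 3.16e-07. The fit adds a small prior count, on which the size of this value depends, so the pooled reads are given beside it: 12 reads in controls and 283 in phagocytosis libraries, a ratio of 10.6 per library size (exact 95% interval 5.98 to 20.8, counting error only). The call held without the count filter. It also held without any 1 library, at 3.56 to 4.59. Nearly all of its reads fell on 1 transcript, the protein-coding Igf2r-201, with 100% at the median of both states.

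M6pr (chr6:122308720-122317680, plus strand), the small cation-dependent receptor for mannose 6-phosphate, had 310, 345 and 427 CPM in controls and 383, 483 and 539 CPM in phagocytosis libraries. Only 2 phagocytosis libraries lay below the highest control, and 14 lay above every control. The difference was 0.42 ± 0.0957, adjusted p = 0.00388. Gnptab, the catalytic subunit of the transferase that starts the mannose 6-phosphate tag, had 3.68, 10.6 and 13.5 CPM against 5.93, 19.4 and 33.6 CPM, with 9 of 16 phagocytosis libraries above every control. Its difference of 0.94 ± 0.363 did not pass (adjusted p = 0.0792), and its 2 to 21 reads a library measure it coarsely. Gnptab too passed the count filter only through its phagocytosis libraries. Scarb2, which carries beta-glucocerebrosidase to lysosomes independently of mannose 6-phosphate, stood at -0.12 ± 0.117.

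Among the membrane proteins 2 of 8 rose and 0 fell (all genes 8.41% higher and 5.18% lower), with a median difference of -0.02. Lamp1 (chr8:13159161-13175338, plus strand), an abundant glycoprotein that lines the lysosomal membrane, had 195, 254 and 310 CPM in controls and 187, 458 and 814 CPM in phagocytosis libraries, a difference of 0.93 ± 0.217 (adjusted p = 0.00663). Its phagocytosis libraries were uneven: 13 of 16 lay above every control, while female NL4-/- numbers 3 and 4 (187 and 249 CPM) and male NL4-/- number 4 (253 CPM) lay within or below the control range. Cd68 (chr11:69664213-69666153, minus strand), a sialomucin of macrophage lysosomes and endosomes, had 679, 853 and 929 CPM against 807, 1138 and 1897 CPM. Of the phagocytosis libraries 14 lay above every control, and the highest was male NL4-/- number 4. The Cd68 difference was 0.51 ± 0.112 (adjusted p = 0.00281).

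Lamp2, the close relative of Lamp1 that also serves chaperone-mediated autophagy, had 162, 211 and 242 CPM in controls and 131, 171 and 247 CPM in phagocytosis libraries, a difference of -0.21 ± 0.126 that did not pass (adjusted p = 0.306). Mcoln1, the calcium channel mucolipin, stood at 0.31 ± 0.13 (adjusted p = 0.114), with 60.4, 111 and 126 CPM against 82.4, 123 and 157 CPM. Laptm5 stood at -0.31 ± 0.121 (adjusted p = 0.0822) and Ctns, which exports cystine, at -0.47 ± 0.174 (adjusted p = 0.0709). In these 3 genes the states overlapped. Laptm4a and Npc1, the membrane partner of Npc2 in cholesterol export, were at 0.07 ± 0.114 and -0.11 ± 0.112.

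Of the 3 lumenal cofactors and carriers 1 rose (all genes 8.41% higher). Npc2 (chr12:84754562-84773152, minus strand), which hands cholesterol to Npc1 inside the lysosome, had 374, 465 and 559 CPM in controls and 525, 649 and 942 CPM in phagocytosis libraries. Both states met only between 525 and 559 CPM, in 1 control and 2 phagocytosis libraries. The difference was 0.54 ± 0.108 (adjusted p = 0.00126). Psap and Grn, whose products activate sphingolipid hydrolases and support lysosomal function, stood at 0.05 ± 0.108 and 0.15 ± 0.116 and did not pass.

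Among the hydrolases none rose and 2 of 20 fell (all genes 8.41% higher and 5.18% lower). Arsb (chr13:93771630-93943016, plus strand), the sulfatase that acts on dermatan and chondroitin sulfate, had 211, 359 and 446 CPM in controls and 97.5, 224 and 339 CPM in phagocytosis libraries. Of the phagocytosis libraries 7 lay below every control, and 5 of 8 controls lay above every phagocytosis library. The difference was -0.65 ± 0.194 (adjusted p = 0.0288), and the call was lost in 8 of 24 fits that left out 1 library. Those libraries were both WT female controls, both NL4-/- female controls, both WT male controls, NL4-/- male control 2 and WT male phagocytosis 1, with values from -0.54 to -0.66.

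Man2b1 (chr8:85083270-85098282, plus strand), lysosomal alpha-mannosidase, had 704, 933 and 1095 CPM in controls and 314, 578 and 1156 CPM in phagocytosis libraries. Below every control lay 11 of the 16, while male WT number 4 had the highest value of all. The difference was -0.57 ± 0.191, with an adjusted p of 0.0498 at the edge of the threshold, and the call was lost in 20 of 24 fits without 1 library. It held only without female WT phagocytosis 1, female NL4-/- phagocytosis 4, male WT phagocytosis 4 or male NL4-/- phagocytosis 4.

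The other 18 hydrolases tested did not pass, and their states overlapped. Those with intervals below 0 were Hexa (-0.26 ± 0.116), Naglu (alpha-N-acetylglucosaminidase, -0.32 ± 0.14) and Asah1 (acid ceramidase, -0.33 ± 0.133), and that above 0 was Gaa (acid alpha-glucosidase, 0.28 ± 0.11), with adjusted p from 0.0932 (Gaa) to 0.147 (Hexa). Sgsh, the heparan sulfate sulfamidase, stood at -0.61 ± 0.316 on 0 to 25 reads a library, and Neu1 (sialidase) at 0.26 ± 0.139. Among the hydrolases the narrowest interval was that of Tpp1 (tripeptidyl peptidase), -0.03 (95% interval -0.23 to 0.18). Close to 0 as well were Glb1 (beta-galactosidase, 0.0213), Manba (beta-mannosidase, 0.021), Arsa (arylsulfatase A, 0.0145), Lipa (acid lipase, 0.0418), Smpd1 (acid sphingomyelinase, 0.06), Gusb (beta-glucuronidase, 0.09) and Fuca1 (fucosidase, -0.09). The rest were Lgmn (-0.13), Ppt1 (palmitoyl-protein thioesterase, -0.17), Galc (-0.17) and Ids (iduronate sulfatase, -0.20).

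**Figure D3:**
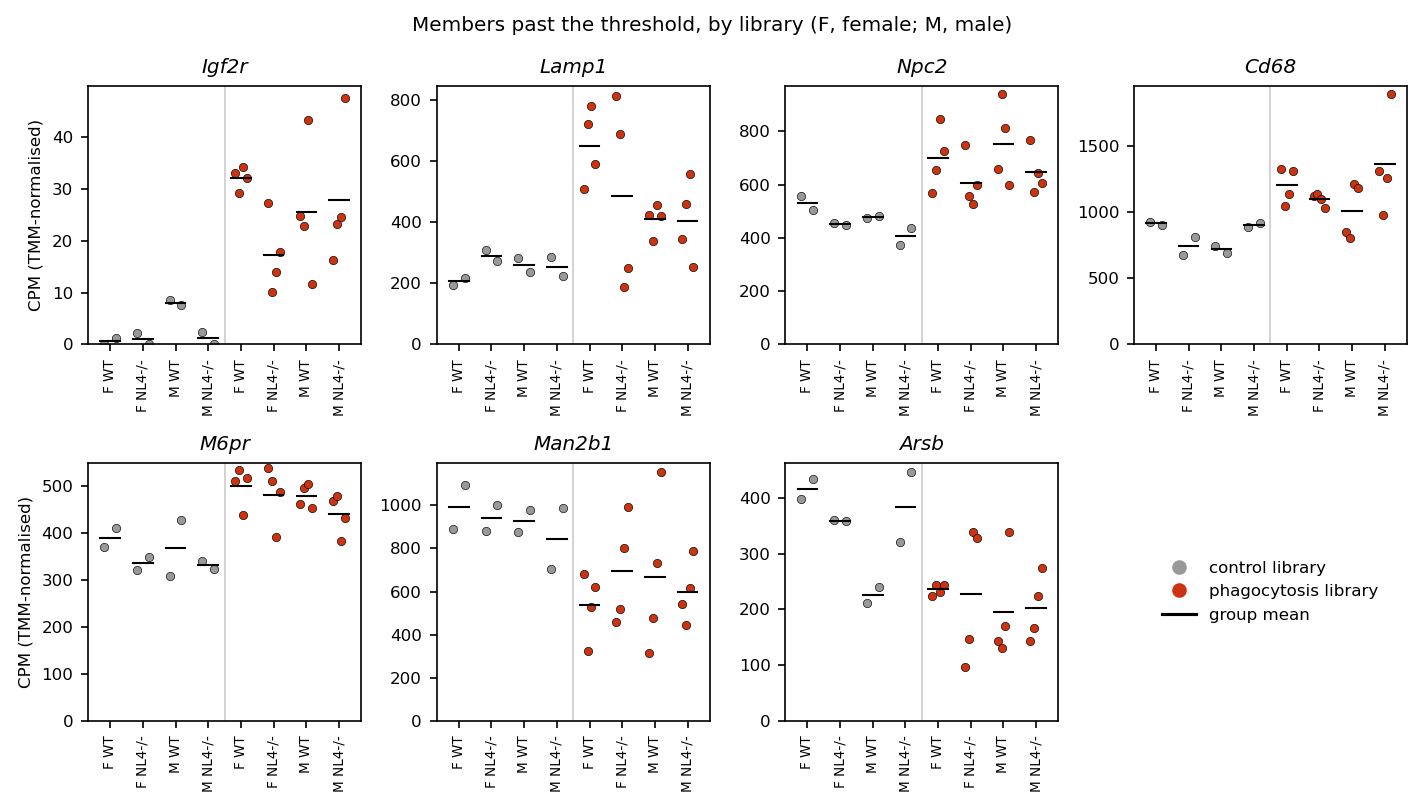
CPM of the 7 members past the threshold in each library, by sex and genotype, with control libraries in grey, phagocytosis libraries in red and a bar at each group's mean. Igf2r shows no overlap between states, and the low phagocytosis points of Lamp1 belong to NL4-/- libraries.

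These counts were read again on parts of the libraries. With phagocytosis libraries 1 and 2 alone 8 members rose, the same 5 with Neu1, Gnptab and Mcoln1, and 7 fell: Man2b1, Arsb, Hexa, Naglu, Asah1, Laptm5 and Ctns (all genes 11.1% higher and 7.65% lower). With numbers 3 and 4 alone 4 rose (Npc2, Igf2r, Lamp1 and Cd68) and 0 fell (all genes 5.28% and 3.06%). M6pr then had an adjusted p of 0.0502 at 0.34. Arsb had a median of 145 CPM in numbers 1 and 2 and 259 CPM in numbers 3 and 4, and Man2b1 469 and 759 CPM, against control medians of 359 and 933 CPM. Without the 3 controls over 20% satellite-like reads, 3 members rose (Npc2, Igf2r and M6pr) and 0 fell (all genes 3.09% and 0.75%). Lamp1 and Cd68 then had adjusted p of 0.0758 and 0.0757, at 0.98 and 0.47.

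Markers of other cells moved with the state. All 10 markers of border-associated macrophages had a higher mean in phagocytosis libraries, and their sum ran from 57.4 to 140 CPM in controls and from 180 to 554 CPM in phagocytosis libraries, without overlap. Most of it came from Siglec1 (control median 30.7 CPM, phagocytosis 111 CPM) and Ms4a6c (60.5 and 121 CPM), while the defining markers Mrc1, Cd163, Lyve1 and Pf4 had phagocytosis medians of 7.87, 1.38, 1.97 and 6.87 CPM and control medians of 4.98, 0, 0 and 0 CPM. All 8 monocyte markers were higher on average too (17.3 to 78.5 CPM in controls, 24.1 to 184 CPM in phagocytosis libraries), as were 5 of 6 oligodendrocyte markers (121 to 183 and 167 to 370 CPM). The same held for 4 of 6 endothelial markers (19.4 to 38.8 and 26.7 to 123 CPM, with Cldn5 at 0 in every library), 7 of 8 neuronal markers (2.23 to 11 and 0 to 22.7 CPM) and 5 of 6 astrocyte markers (58.5 to 134 and 73.0 to 139 CPM). Of neutrophil markers 3 of 6 were higher (0 to 22.2 and 0 to 138 CPM), and of lymphocyte markers 1 of 6 (4.77 to 44.1 and 0 to 30.1 CPM). None of the 10 microglia markers was higher. Their sum also differed between replicate numbers among phagocytosis libraries. It was 23302 and 23958 CPM in female NL4-/- numbers 1 and 2, and 39445 and 41733 CPM in numbers 3 and 4. The same order held in male WT (18633 and 24138, 27255 and 44368 CPM) and male NL4-/- (25242 and 24110, 32793 and 36542 CPM). In female WT the numbers overlapped (32139 and 23489, 26694 and 34267 CPM). The part of any of these markers in the differences of the members was not tested.

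Within each sex and genotype, 4 phagocytosis libraries were set against 2 controls. Igf2r rose in female WT (adjusted p = 0.00139), in female NL4-/- (adjusted p = 0.045) and in male NL4-/- (adjusted p = 0.0248). It had passed the count filter only through its phagocytosis libraries, so these adjusted p-values carry that selection. No other member was called by edgeR in any group. Of all genes, 0.541%, 0.408% and 0.5% were called higher in these groups, 0.0408%, 0.051% and 0.102% lower, and 0.581%, 0.459% and 0.602% in either direction. In male WT 0 members were called (all genes 0.326% in either direction), with 4 members and 804 of 9803 genes at an unadjusted p under 0.05, and Igf2r stood at 1.64 ± 0.628 (adjusted p = 0.457). DESeq2 called Lamp1 in female WT (1.67, DESeq2 adjusted p = 0.00202, all genes 2.21%) and 0 members in female NL4-/-, male WT and male NL4-/- (all genes 1.59%, 0.867% and 1.54%). It gave Igf2r no adjusted p in any of the 4 groups, so it neither kept nor ended the Igf2r calls, and its Igf2r differences were 5.77, 4.32, 1.69 and 4.52 in female WT, female NL4-/-, male WT and male NL4-/-.

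The Igf2r reads behind these folds were few in controls. Female WT controls had 0 and 1 reads and phagocytosis libraries 13 to 33, a pooled ratio of 55.9 (exact 95% interval 9.77 to 2232). In female NL4-/- 1 control read stood against 49 (ratio 21, interval 3.60 to 847), and in male NL4-/- 1 against 69 (23.7, interval 4.11 to 949). Male WT controls had 4 and 5 reads, against 77 in the phagocytosis libraries, a ratio of 3.36 (1.68 to 7.63). In each of the 4 groups the states of Igf2r did not overlap (as for 1.69% of all genes), and the difference between the sexes in the state difference did not pass (-1.73 in males minus females, 95% interval -4.38 to 0.92, adjusted p = 1). The female NL4-/- call was lost in 10 of 24 fits without 1 library: either control, phagocytosis 1, female WT phagocytosis 1, 3 or 4, male WT control 1 or 2, male WT phagocytosis 2 or male NL4-/- phagocytosis 2 (adjusted p from 0.0517 to 0.444). The male NL4-/- call was lost without either control (adjusted p = 0.196 and 0.446) or phagocytosis 4 (0.0605). In female WT leaving out either control ended it (adjusted p = 0.0698 without control 1 and 0.0644 without control 2).

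Npc2, Cd68 and M6pr also had all 4 phagocytosis libraries above both controls in each of the 4 groups. Their differences ran from 0.39 (female WT) to 0.67 (male NL4-/-) for Npc2, from 0.40 (female WT) to 0.59 (male NL4-/-) for Cd68 and from 0.36 (female WT) to 0.52 (female NL4-/-) for M6pr. Lamp1 was separated in female WT (195 and 219 against 509 to 780 CPM, 1.65 ± 0.446, adjusted p = 0.107) and in male WT (0.67 ± 0.429). In both NL4-/- groups its states overlapped, with 0.73 ± 0.429 in females and 0.67 ± 0.434 in males. Without overlap between states stood 6 members higher and 8 lower in female WT, 7 and 5 in female NL4-/-, 6 and 3 in male WT, and 4 and 3 in male NL4-/-. The shares of all genes were 11.5% and 12.6%, 12.1% and 11.3%, 9.09% and 8.2%, and 11.5% and 11.5%. Man2b1 was lower without overlap in female WT, and Arsb in female WT, female NL4-/- and male NL4-/-.

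**Figure D4:**
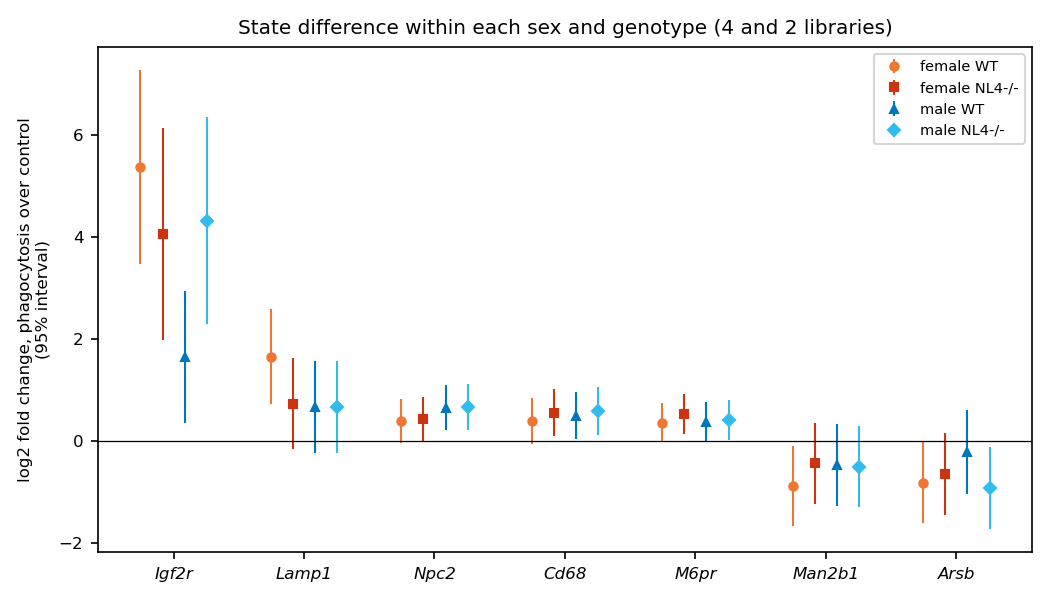
Log2 fold change of phagocytosis over control within each sex and genotype for the 7 members called on the mean. The 95% intervals were computed from edgeR's F statistic. The 4 intervals of Igf2r lie above 0 and are the widest, and those of Npc2, Cd68 and M6pr lie close together.

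The title of the study speaks of a knockout microglial state that depends on sex, and NL4-/- was compared with WT within each sex and state. None of the 35 members was called in any of the 4 comparisons (edgeR), and none of all 9803 genes was (0% each). At an unadjusted p under 0.05 stood 1 member in female controls, 1 in female phagocytosis, 1 in male controls and 2 in male phagocytosis, beside 210, 510, 328 and 465 of all genes. DESeq2 also called 0 members, and 4, 3, 5 and 0 of all genes. The median half-width of the members' 95% intervals was 0.61 in female controls, 0.42 in female phagocytosis, 0.62 in male controls and 0.42 in male phagocytosis libraries. Intervals within 1 log2 unit of 0 on both sides were held by 23, 28, 23 and 30 members.

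In male phagocytosis libraries the smallest p among members were those of Glb1, with 52.9, 69.6 and 119 CPM in WT and 91.8, 129 and 161 CPM in NL4-/- (0.72, 95% interval 0.24 to 1.2, adjusted p = 1), and Cd68, with 807, 1019 and 1213 CPM in WT and 983, 1287 and 1897 CPM in NL4-/- (0.43, 95% interval 0.06 to 0.79, adjusted p = 1). Both genes overlapped between genotypes. Glb1 shares exon sequence with Tmppe, to which 703 reads were assigned beside 1624 for Glb1. The Cd68 genotype difference was -0.14 ± 0.179 in female phagocytosis libraries, and the test of males minus females gave 0.56 (95% interval 0.05 to 1.08, adjusted p = 0.993).

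In female phagocytosis libraries Igf2r had 29.1, 32.6 and 34.2 CPM in WT and 10.2, 15.9 and 27.2 CPM in NL4-/-. The difference of -0.89 (95% interval -1.76 to -0.02) did not pass (adjusted p = 0.946). Counts scaled from TPM reversed it to 0.79. The pooled reads were 49 and 88, a ratio of 0.534 (exact 95% interval 0.368 to 0.765, counting error only). Next came Ppt1 (0.34, 95% interval -0.09 to 0.78, adjusted p = 0.964), with 171, 247 and 327 CPM in WT and 268, 311 and 370 CPM in NL4-/-. Lamp1 differed between genotypes in the libraries numbered 3 and 4 alone, 187 and 249 CPM in NL4-/- against 780 and 592 CPM in WT (-1.67, adjusted p = 0.0249). Of the 9383 genes tested with those libraries, 4 were called. Over all 4 libraries a group the difference did not pass (-0.43 ± 0.335, adjusted p = 0.964), and numbers 1 and 2 had 814 and 689 CPM in NL4-/- and 509 and 721 CPM in WT. Lamp1 was singled out here after its values were seen.

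In controls, with 2 libraries a group, the members with the smallest p were Manba and Mcoln1 in females and Igf2r and Arsb in males. Manba had 32.5 and 41.7 CPM in WT and 16.4 and 18 CPM in NL4-/- (-1.11, 95% interval -2.08 to -0.15, adjusted p = 1). Mcoln1 had 60.4 and 102 CPM in WT and 111 and 126 CPM in NL4-/- (0.54, 95% interval -0.07 to 1.14, adjusted p = 1). For Igf2r in male controls 1 read stood against 9, a pooled ratio of 0.153 (exact 95% interval 0.00348 to 1.10). Arsb had 211 and 241 CPM in WT and 320 and 446 CPM in NL4-/- male controls (0.76, 95% interval -0.20 to 1.72, adjusted p = 1).

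**Figure D5:**
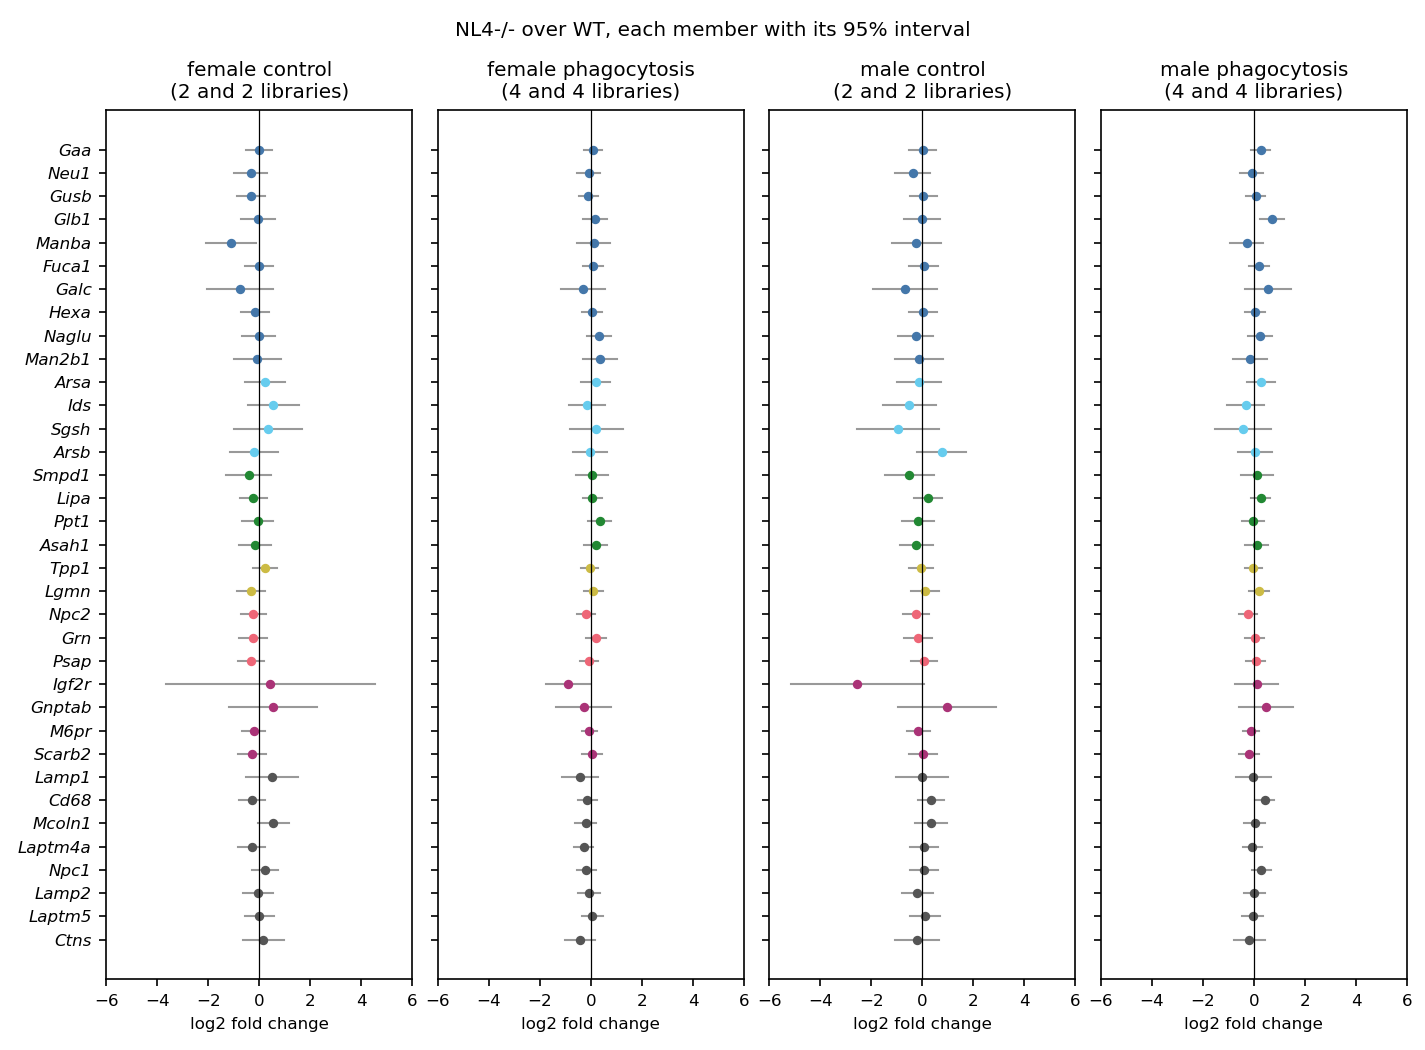
Log2 fold change of NL4-/- over WT for the 35 members in each sex and state, with colours for the roles. The 95% intervals were computed from edgeR's F statistic. No member was called, and the widest intervals are those of Igf2r in controls.

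Sexes were compared within each genotype and state, and 0 members were called in each (edgeR and DESeq2). At an unadjusted p under 0.05 stood 1 member in WT controls, 1 in WT phagocytosis, 0 in NL4-/- controls and 0 in NL4-/- phagocytosis libraries, beside 332, 740, 182 and 225 of all genes. After adjustment edgeR called 0%, 0.0204%, 0.0102% and 0.0102% of all genes. The smallest p was that of Igf2r in WT controls, where males had 7.57 and 8.54 CPM and females 0 and 1.23 CPM, 9 reads against 1 (ratio 12.9, exact 95% interval 1.78 to 564, adjusted p = 1). Among WT phagocytosis libraries Npc1 had 96.2, 114 and 151 CPM in females and 80.5, 86.1 and 104 CPM in males (-0.42, 95% interval -0.79 to -0.05, adjusted p = 0.605), and Lamp1 stood at -0.66 ± 0.336 (adjusted p = 0.69). Sgsh and Manba in NL4-/- controls, and Cd68 and Igf2r in NL4-/- phagocytosis libraries, had differences of -1.36, 0.75, 0.31 and 0.66 with an adjusted p of 1. The direction of the last reversed to -1.32 with counts scaled from TPM.

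Whether the state difference itself differed was also tested, and 0 members were called (edgeR and DESeq2, all genes 0% by edgeR). NL4-/- minus WT gave Mcoln1 at -0.52 ± 0.258 (adjusted p = 1) and Glb1 at 0.47 (95% interval -0.12 to 1.07, adjusted p = 1), and no member but 276 of all genes at an unadjusted p under 0.05. For Mcoln1, mean levels in control and phagocytosis libraries were 81.2 and 135 CPM in female WT (adjusted p = 0.21) and 118 and 117 CPM in female NL4-/-. Males minus females gave Galc at -1.12 (95% interval -2.22 to -0.01, adjusted p = 1), the only member at an unadjusted p under 0.05, beside 190 of all genes. Galc had means of 25.9 CPM in male WT controls and 9.90 CPM in male WT phagocytosis libraries, on 3 to 19 reads a library. Beside Cd68, the sex difference of the genotype difference was next smallest in p for Npc1 (0.47, 95% interval -0.06 to 0.99, adjusted p = 0.993).

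Outside the members, 58 further genes of the lysosome were listed by function, with cathepsins and pump subunits again left out, and 56 were tested. Of these 8 rose and 5 fell (all genes 8.41% higher and 5.18% lower), with a median difference of 0.04. Those that rose with the smallest p were Cd63, a tetraspanin of late endosomes (444, 490 and 705 CPM in controls, 693, 1006 and 1365 CPM in phagocytosis libraries, 0.94 ± 0.124, adjusted p = 4.29e-06), the nuclease Pld3 (0.52), the carboxypeptidase Scpep1 (0.49) and Cln8 (0.49), which helps export hydrolases from the endoplasmic reticulum. For Cd63 only the lowest phagocytosis library lay within the control range. Of those that fell the smallest p was that of Sort1 (sortilin, a sorting receptor that does not need mannose 6-phosphate), with 67.1, 97.0 and 143 CPM in controls and 36.2, 63.9 and 88.0 CPM in phagocytosis libraries (-0.75 ± 0.137, adjusted p = 0.000445). Its states overlapped. The amino acid transporter Slc36a1 (-0.51) and Sidt2 (-0.61) also fell.

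The factors that bind the CLEAR element, picked from the same list after values were seen, did not pass: Tfeb stood at -0.09 ± 0.218 (adjusted p = 0.842), Tfe3 at -0.28 ± 0.128 (adjusted p = 0.155) and Mitf at -0.15 ± 0.221 (adjusted p = 0.71). Tfec was below the filter, at 0 to 15.7 CPM.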

How the data were processed

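Each library came with a table per transcript in the layout that salmon writes, per the file headers. The deposited expected counts (estimated reads per transcript), the deposited TPM and the effective lengths were made by the authors; aligner or quantifier version, index and read filters were not given in the sources used here. Transcript identifiers were matched to GENCODE vM21 (GRCm38) for 116023 of 116945 transcripts, 922 were left out, and expected counts were summed per gene and rounded. Because shared reads were divided among transcripts without strand, genes with overlapping exons cannot be fully separated.

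All 24 libraries entered 1 fit of 8 group means (edgeR 4.0.16 in R 4.3.3, TMM, filterByExpr with a minimum count of 10, robust quasi-likelihood F test, two-sided, prior count 0.125), with Benjamini-Hochberg adjustment over 9803 genes and a threshold of 0.05. The biological coefficient of variation was 0.285. Each standard error was the absolute fold change without the prior count over the square root of F, and is not an edgeR output. The 95% intervals place that error, times a t quantile, around the fold change with the prior count. They can disagree with the F test: for genotype in male controls, 1 member had an unadjusted p under 0.05 and 0 intervals excluded 0. CPM of the members and other lysosome genes used TMM library sizes. CPM of the cell type markers used the total reads of each library, satellite-like reads included. Pooled read ratios have exact conditional 95% intervals that cover counting error only, since reads without molecular identifiers are not independent molecules. Beyond the term biological replicates the labels say nothing of separate animals. The p-values therefore set each difference against the spread between these libraries, estimated over all 8 groups and moderated across genes.

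Replicate numbers are shared between groups. Deviations of same-numbered libraries of different groups correlated at a median of 0.006 over 68 pairs (from -0.114 to 0.147). Deviations sum to 0 within a group, so the 2 libraries of a control group mirror each other and the pairs are not independent. The check is thus weak, and the numbers were not taken as pairs in the main fit. This check compares equal numbers only, so it cannot show a difference shared by a set of numbers, such as that described among phagocytosis libraries. With a replicate block, 1646 of 9803 genes were called between the states, against 1332 in the main fit. Scripts were tested on simulated data. Alternatives were DESeq2 1.42.0, its size factors, no count filter, counts scaled from TPM, protein-coding transcripts alone, a replicate block, the compared groups alone, subsets of libraries and each library left out. The members, lists and alternatives were chosen with earlier results of these data known. Full values were given for members past the threshold, for the 2 members of smallest p in a comparison with none, and for up to 4 other lysosome genes a direction. A result that this rule would name is not reported here.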

Additional observations from a re-analysis of the deposited data

Results flagged for a closer look

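Single libraries stood apart from the other 3 of their group in 7 of 144 groups of 4 tested over the 36 genes, by the gap to the nearest library over the group's range (above Dixon's 95% critical value). Chance gives about 1 in 20 such groups. In female WT phagocytosis, Gla had 1.60 CPM in number 4 and 0 in the others, Galc had 11.2 CPM in number 2 against 18.6 to 19.2 CPM, and Smpd1 had 32.6 CPM in number 3 against 76.1 to 80.2 CPM. In male WT phagocytosis, Smpd1 had 114 CPM in number 4 against 45.0 to 51.1 CPM. In male NL4-/- phagocytosis, Naglu had 292 CPM in number 4 against 193 to 205 CPM, Scarb2 had 103 CPM in number 1 against 127 to 132 CPM, and Npc1 had 98.8 CPM in number 4 against 110 to 112 CPM. None of the 7 members called between the states was among these genes.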

How the results depend on the processing

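On the mean of the groups, the 5 members that rose kept their calls in each of the 24 fits without 1 library. The count of members higher was 3 without the controls over 20% satellite-like reads and 8 with phagocytosis numbers 1 and 2 alone. With the replicate block Neu1 and Gnptab also rose (all genes 9.47% higher and 7.32% lower). Neu1 and Mcoln1 also rose with protein-coding transcripts alone, and Gnptab with counts scaled from TPM. The count lower was 1 with DESeq2 size factors, with counts scaled from TPM and with protein-coding transcripts alone, 7 with the replicate block and with numbers 1 and 2 alone, and 0 without those controls and with numbers 3 and 4 alone. All-gene calls in either direction numbered 1336 with DESeq2 size factors, 917 (of 8796) with protein-coding transcripts and 1646 with the replicate block. Leaving out 1 library gave 0 to 5 members lower. In female WT the count higher was 2 (Igf2r and Lamp1) without the count filter, with the replicate block, with the compared groups alone and with either pair of phagocytosis numbers, and 0 with counts scaled from TPM. All-gene calls there numbered 57, and 269 (of 26375), 293, 184 (of 8682), 119, 152 and 32 in that order. Lower were 2 with the replicate block and 1 with the compared groups alone. Without 1 library it had 0 to 2 higher. In female NL4-/- the count higher was 0 with counts scaled from TPM, protein-coding transcripts, the replicate block, the compared groups alone, those controls left out, or numbers 3 and 4 alone, and 2 with numbers 1 and 2 (all genes 45, and 315 with the latter). In male NL4-/- it was 0 with counts scaled from TPM, those controls left out, or numbers 1 and 2 alone. Each of these NL4-/- groups had 1 lower with the replicate block and with numbers 1 and 2, and 0 to 1 higher without 1 library. DESeq2 gave Igf2r no adjusted p in these groups and called 1 member (Lamp1) in female WT and 0 in female and male NL4-/-. NL4-/- against WT in female phagocytosis had 1 call (Lamp1) with numbers 3 and 4, beside 4 of 9383 genes called there. Without the count filter the median difference of all genes was 0.18. Over all genes, calls between the states numbered 1332, and 410 without those controls (80.5% higher, against 61.9%), 782 with numbers 3 and 4, 880 with counts scaled from TPM and 781 without female WT control 2 (73.2% higher). The cause was not tested. Differences between the states that lay near 0 changed sign in some settings. With counts scaled from TPM, Glb1 was -0.0106, Arsa -0.0889 and Tpp1 0.22. With protein-coding transcripts, Glb1 was -0.00962, Gusb -0.00581, Manba -0.25, Npc1 0.18 and Mitf 0.18. With the replicate block, Glb1 was -0.24, Arsa -0.0903, Lipa -0.0269, Smpd1 -0.16 and Psap -0.12. Without those controls, Arsa was -0.0348, Lipa -0.0488, Psap -0.0271 and Mitf 0.11. With numbers 1 and 2, Glb1 was -0.22, Arsa -0.0719, Smpd1 -0.14 and Psap -0.0838. With numbers 3 and 4, Manba was -0.13, Fuca1 0.0228, Tpp1 0.0667, Lgmn 0.0189 and Tfeb 0.00977. Without 1 library the ranges were -0.0396 to 0.16 for Glb1, -0.25 to 0.0203 for Galc, -0.0600 to 0.13 for Manba, -0.12 to 0.00604 for Fuca1, -0.0298 to 0.13 for Arsa, -0.0263 to 0.14 for Smpd1, -0.0515 to 0.0328 for Tpp1, -0.17 to 0.0563 for Tfeb and -0.25 to 0.00931 for Mitf. With counts scaled from TPM, Igf2r reversed to 0.79 for genotype in female phagocytosis and to -1.32 for sex in NL4-/- phagocytosis. Depth limits Igf2r, Gnptab, Sgsh, Galc and Gla most, and 2 control libraries a group limit every genotype and sex comparison of controls.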

Other observations

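Several members had most of their reads on transcripts that are not annotated as protein-coding. Of the Asah1 reads, 67.2% (median of controls, range 50.2 to 75.3%) and 66.3% (phagocytosis, 40.1 to 80.1%) were assigned to Asah1-203, a retained intron form. Arsa-201, also a retained intron form, held 81.8% (52.4 to 100%) of Arsa reads in controls and 84.1% (0 to 100%) in phagocytosis libraries. Gnptab-206, annotated for nonsense-mediated decay, held 65.0% of all Gnptab reads. For Neu1 the protein-coding form Neu1-201 held a median of 69.0% in controls (57.2 to 95.1%) and 88.5% in phagocytosis libraries (68.8 to 100%), while the retained intron form Neu1-202 held 31.0% and 10.2%. These shares are estimates of the quantifier and were not tested.

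Lamp2 reads were divided between Lamp2-202 (median 55.4% in controls, 45.0% in phagocytosis libraries) and Lamp2-201 (35.2% and 43.4%), with overlapping ranges (37.0 to 61.9% and 29.4 to 66.2% for the first). Exons of another gene with reads overlapped those of 7 members. The overlapping gene had 2186 reads (Cap1) beside 4792 for Ppt1, 896 (Rmc1) beside 1727 for Npc1, and 85 (Grtp1) beside 6445 for Lamp1. For Hexa, Sgsh and Grn the overlapping genes had 24, 7 and 2 reads.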
